A study of Mus musculus with 20 samples.

Results

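The 40 genes described here act in the cell division cycle and were taken by gene symbol from a count table of 51123 mouse genes. They are 15 genes of DNA replication and its preparation (S-phase genes), 23 genes of mitosis and cytokinesis (mitotic genes), and Foxm1 and Mybl2, factors that activate mitotic genes. The rule names them by symbol and uses no measured level, but the members were chosen with earlier results of these data known. All 40 were present in the table, and all 40 passed the low-count filter in every comparison.

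RNA came from tdTomato-positive cells sorted from mouse skin in 7 groups, and was measured by bulk RNA sequencing from 5 ng per library. Young epidermis, from mice 100 to 120 days of age, was wild type (WT), K14cre; Wwox fl/fl (WKO), K14cre; p53 fl/fl (PKO) or K14cre; Wwox fl/fl; p53 fl/fl (DKO), with 3 libraries in each group. Old WT epidermis, from mice of at least 400 days, gave 2 libraries. Cutaneous squamous cell carcinomas (cSCC) of K14cre; p53 fl/fl mice (PKO cSCC) and of K14cre; Wwox fl/fl; p53 fl/fl mice (DKO cSCC) gave 3 libraries each, with no age in the labels. K14cre expresses Cre recombinase from the keratin 14 promoter, so that floxed alleles are deleted in basal keratinocytes and their progeny, and the WT titles name neither Cre nor reporter alleles. The libraries of a group are labelled as biological replicates, and the p-values below measure the spread between them.

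A dividing cell copies its DNA in S phase and parts the copies in mitosis. Late in G1, cyclin-dependent kinases free E2F factors from proteins of the retinoblastoma family, and E2F then switches on genes for loading the replicative helicase, for nucleotide supply and for replication itself. Later in the cycle the MuvB complex joins Mybl2 and Foxm1 at the promoters of mitotic genes, which are often marked by a CHR element and CCAAT boxes, while p53 holds both waves back through the kinase inhibitor p21, the product of Cdkn1a. In epidermis division is mostly confined to the basal layer, and in squamous carcinomas it extends beyond it.

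Library totals ranged from 11930153 to 17199262 counts, with 18682 to 25735 genes detected. Levels are given in CPM, counts scaled to the library total, with the trimmed mean (TMM) factors of all 20 libraries. In a bulk library, fewer cells in cycle and less of each RNA per cell cannot be told apart. Wwox stood at 1.29, 0.137 and 1.14 CPM in the WKO libraries and at 7.37 to 17.2 CPM in the WT and PKO libraries. It stood at 0.926, 0.944 and 7.34 CPM in the DKO young libraries, so the library labelled DKO young 3 goes against its label, as did Trp53 there (21.1 CPM, beside 3.31 and 3.27 CPM in the other DKO young libraries). Trp53 stood at 45.5 CPM in the library labelled DKO cSCC 3, against 2.74 and 2.86 CPM in the other DKO tumours, and goes against that label too. Trp53 was also 21.8 and 19.2 CPM in PKO young 2 and 3, beside 5.91 CPM in PKO young 1, while WT libraries held 25.7 to 40.1 CPM. All 7 basal keratinocyte markers, which check the labelled cell type, were above 0 in every library, but their summed level was low in all WT young libraries (1568 to 2775 CPM), in PKO young 3 (2778 CPM) and in old WT 2 (3108 CPM), against 9096 to 29140 CPM in the other 15 libraries. For 8 T cell markers the summed CPM was 3003 in PKO young 3, between 1597 and 2238 in WT young, and 9.11 to 832 in the remaining 16 libraries. The Y-linked gene Eif2s3y was 20 to 26.8 CPM in WT young 1, in all 3 PKO cSCC, in DKO cSCC 2 and in the library labelled DKO cSCC 3, and at most 1.84 CPM elsewhere. The PKO tumours thus differ in sex from PKO young and from old WT epidermis, and the DKO tumours are of mixed sex.

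**Figure D1:**
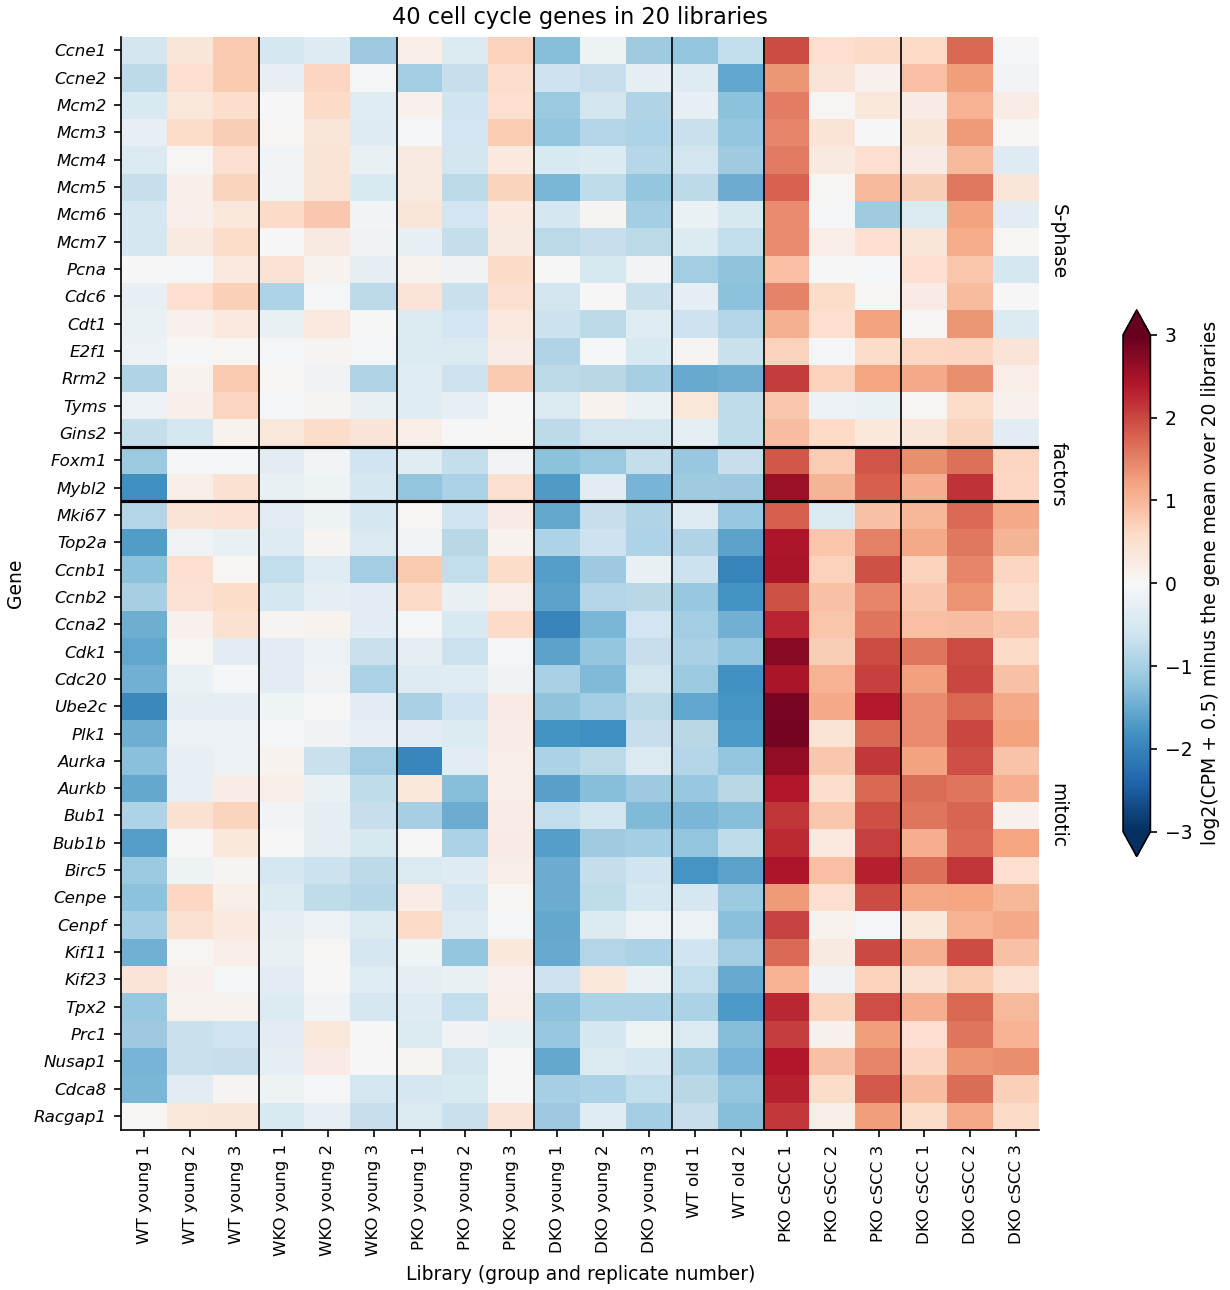
Level of each of the 40 genes in each of the 20 libraries, as log2(CPM + 0.5) minus the mean of the gene over all libraries, with libraries ordered by group. The mitotic genes are above their means in all 6 tumour libraries, except Mki67 and Kif23 in PKO cSCC 2 and Cenpf in PKO cSCC 3. The S-phase genes are highest in PKO cSCC 1 and DKO cSCC 2 and have their lowest group sums in DKO young and old WT epidermis.

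The S-phase genes summed to 170 to 497 CPM in the 14 epidermis libraries and to 336 to 937 CPM in the 6 tumours, so the ranges overlapped. None of the 15 had all 6 tumour libraries above all 14 epidermis libraries, a pattern shown by 1.14% of all 18164 genes. PKO cSCC 1 stood above every epidermis library for 15 of the 15 genes and DKO cSCC 2 for 14 of them. The other 4 tumours did so for 1 to 5. The share of all genes above every epidermis library in a single tumour was not counted.

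E2f1, the activating E2F factor that drives entry into S phase, is the first of these genes in the order of the cycle. In young epidermis E2f1 stood at 7.42, 8.37 and 8.86 CPM in WT, 8.17, 9.101 and 8.13 in WKO, 6.33, 6.14 and 9.95 in PKO and 4.3, 8.13 and 6.05 in DKO (libraries 1, 2 and 3 of each group in turn, here and below). It was 9.03 and 5.17 CPM in old WT, 13.9, 8.297 and 12.6 in PKO cSCC and 13.3, 13.6 and 11.2 in DKO cSCC. In 5 of the 6 tumours E2f1 was above every epidermis library, and PKO cSCC 2 lay within the epidermis range.

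Ccne1 and Ccne2 encode the cyclins E, which activate Cdk2 at the start of S phase. Ccne1 measured 2.07, 4.36 and 6.04 CPM in WT, 2.18, 2.395 and 1.284 in WKO, 3.81, 2.35 and 5.64 in PKO and 1.06, 2.903 and 1.29 in DKO young epidermis. Old WT had 1.15 and 1.75 CPM, PKO cSCC 14.2, 4.82 and 5.13 and DKO cSCC 5.26, 11.9 and 3.21. For Ccne1 only PKO cSCC 1 and DKO cSCC 2 stood above all epidermis libraries, and WT young 3 was higher than 4 of the tumours. The Ccne2 level was 2.78, 7.62 and 9.25 CPM in WT, 4.29, 8.42 and 4.99 in WKO, 2.28, 3.03 and 7.65 in PKO and 3.18, 3.05 and 4.17 in DKO young epidermis. PKO cSCC stood at 13.7, 6.904 and 5.76 CPM, DKO cSCC at 10.2, 12.99 and 4.91 and old WT at 3.86 and 1.44. Ccne2 was highest in PKO cSCC 1, DKO cSCC 2 and DKO cSCC 1, and the other tumours overlapped WT young.

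Cdc6 and Cdt1 bring the helicase to replication origins, a step called licensing. WT young epidermis had 3.33, 5.92 and 6.94 CPM of Cdc6, WKO 1.91, 3.9 and 2.14, PKO 5.41, 2.35 and 5.88 and DKO 2.58, 3.99 and 2.38. The old WT values were 3.29 and 1.44 CPM, those of PKO cSCC 12.3, 6.21 and 4.15 and those of DKO cSCC 4.89, 8.27 and 4.11. Only 2 tumours were above the epidermis range of Cdc6, and the DKO young and PKO young groups overlapped. In young epidermis Cdt1 stood at 12.3, 15.4 and 17.6 CPM in WT, 12.1, 17.4 and 14.2 in WKO, 10.3, 9.25 and 17.4 in PKO and 8.799, 7.91 and 10.8 in DKO. It was 8.95 and 7.45 CPM in old WT, 30.2, 20.3 and 33.2 in PKO cSCC and 14.6, 36.3 and 10.5 in DKO cSCC. Cdt1 stood above all epidermis libraries in 4 tumours, the 3 PKO cSCC and DKO cSCC 2, and the other DKO tumours lay inside the epidermis range.

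Mcm2 to Mcm7 encode the 6 subunits of that helicase. Mcm2 measured 28.1, 49.02 and 56.3 CPM in WT, 38.7, 58.1 and 30.2 in WKO, 42.4, 25.4 and 55.6 in PKO and 17.7, 26.3 and 20.7 in DKO young epidermis. Old WT had 32.9 and 16.3 CPM, PKO cSCC 113, 40.1 and 49.4 and DKO cSCC 45.9, 80.3 and 45.2. Mcm2 had its lowest level in old WT 2, and each of the 3 DKO young libraries was below each WT young library. The Mcm5 level was 19.4, 35.1 and 50.2 CPM in WT, 29.9, 42.2 and 22.9 in WKO, 38.3, 17.9 and 50.1 in PKO and 11.8, 18.3 and 13.8 in DKO young epidermis. PKO cSCC stood at 109.8, 32.7 and 62.9 CPM, DKO cSCC at 52.7, 95.1 and 40.6 and old WT at 18.2 and 10.9. Mcm5 gave the same order of DKO young below WT young, and 4 tumours exceeded all epidermis. Mcm3, Mcm4 and Mcm7 each had 2 or 3 tumours above all epidermis. Mcm6 stood apart in 1 tumour: it was 19.3 CPM in PKO cSCC 3, the lowest of all 20 libraries, where Mcm5 was 62.9 CPM. In the other tumours Mcm6 ranged from 29.9 to 110.3 CPM. Gins2, a subunit of the GINS complex that completes the active helicase, ranged from 4.04 to 10.9 CPM in epidermis and from 5.80 to 14.5 CPM in tumours.

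Pcna encodes the sliding clamp that holds DNA polymerase on its template. WT young epidermis had 36.9, 36.02 and 44.9 CPM of Pcna, WKO 49.8, 39.4 and 30.2, PKO 39.3, 34.2 and 55.2 and DKO 36.8, 26.4 and 34.8. The old WT values were 17.7 and 15.7 CPM, those of PKO cSCC 69.8, 37.4 and 35.7 and those of DKO cSCC 52.1, 66.3 and 25.7. Both old WT libraries were below all other 18 libraries for Pcna, and 3 tumours lay inside the young epidermis range. Rrm2, the regulated subunit of ribonucleotide reductase, and Tyms, thymidylate synthase, supply deoxynucleotides. In young epidermis Rrm2 stood at 7.64, 15.9 and 25.6 CPM in WT, 15.2, 13.6 and 7.63 in WKO, 11.3, 9.42 and 25.7 in PKO and 8.27, 8.06 and 7.15 in DKO. It was 4.84 and 5.02 CPM in old WT, 64.1, 24.2 and 33.9 in PKO cSCC and 32.96, 39.3 and 17.1 in DKO cSCC. Rrm2 was lowest in the old WT libraries and exceeded all epidermis in 4 tumours. Tyms measured 16.9, 21.6 and 30.4 CPM in WT, 18.3, 20.2 and 16.3 in WKO, 14.9, 16.1 and 19.1 in PKO and 14.2, 20.6 and 16.8 in DKO young epidermis. Old WT had 24.6 and 11.1 CPM, PKO cSCC 33.8, 17 and 16.7 and DKO cSCC 19.9, 28.5 and 21.2. Tyms was the S-phase gene with least separation: PKO cSCC 1 alone was above all epidermis libraries.

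The mitotic genes summed to 167 to 491 CPM in the epidermis libraries and to 545 to 1868 CPM in the tumours, with no overlap. For 12 of the 23, and for Foxm1 and Mybl2, all 6 tumours were above all 14 epidermis libraries, beside 1.14% of all genes. PKO cSCC 1 was the highest of the 20 libraries for 21 of the 23, and PKO cSCC 2 was the tumour with fewest mitotic genes above all epidermis (14 of 23). Old WT had the lowest group mean for 16 of the 23 and DKO young for the other 7. The shares of all genes for these rules of single libraries and group means were not counted.

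**Figure D2:**
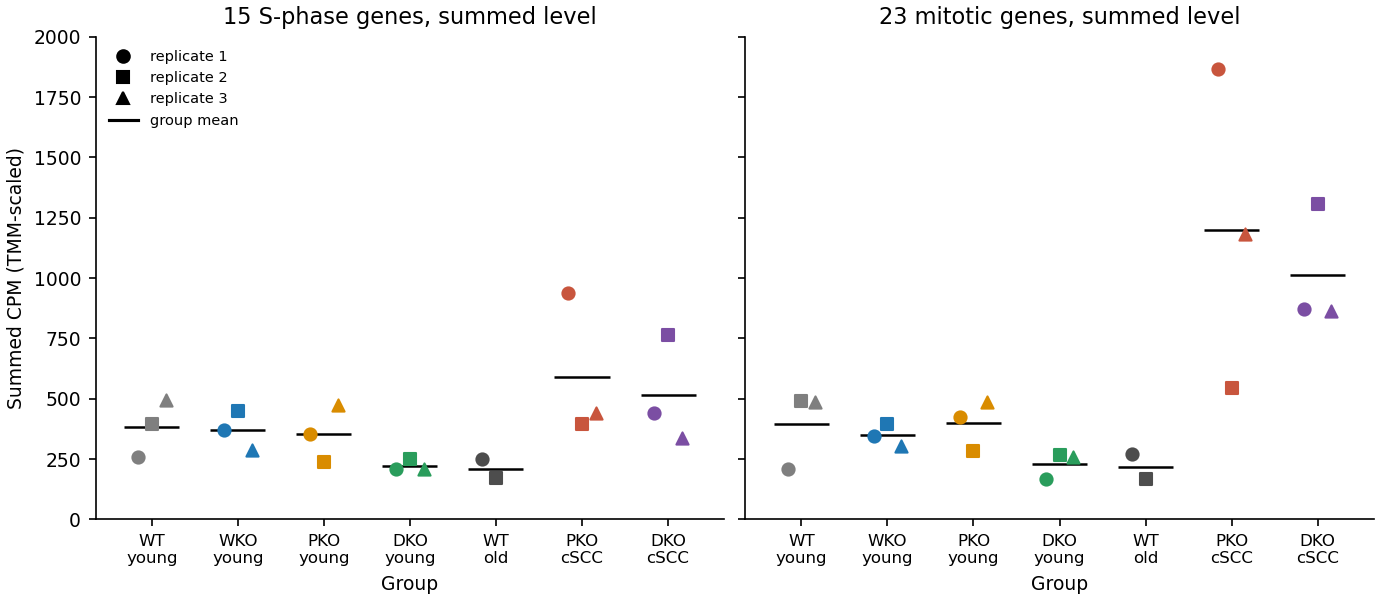
Summed level in CPM of the 15 S-phase genes (left) and the 23 mitotic genes (right) in each library; symbols give the replicate number and bars the group mean. Mitotic sums of the tumours (545 to 1868 CPM) lie above all epidermis libraries (at most 491 CPM), while S-phase sums overlap.

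Foxm1, a forkhead factor, and Mybl2 (B-Myb) activate mitotic genes together with MuvB. The Foxm1 level was 5.51, 12.1 and 12.02 CPM in WT, 9.87, 11.7 and 7.99 in WKO, 9.596, 7.32 and 11.8 in PKO and 5.03, 5.52 and 7.34 in DKO young epidermis. PKO cSCC stood at 46.5, 21.3 and 46.97 CPM, DKO cSCC at 33.7, 40.2 and 19.7 and old WT at 5.42 and 7.52. The lowest tumour value of Foxm1, in the library labelled DKO cSCC 3, was above the highest epidermis value, in WT young 2. WT young epidermis had 1.47, 7.56 and 9.198 CPM of Mybl2, WKO 5.51, 5.82 and 4.35, PKO 2.58, 3.11 and 9.28 and DKO 1.65, 5.15 and 2.18. The old WT values were 2.87 and 2.81 CPM, those of PKO cSCC 40.98, 13.7 and 23.98 and those of DKO cSCC 14.4, 30.8 and 10.3. Mybl2 had all tumours above all epidermis too, but the margin was small, 10.3 CPM in the library labelled DKO cSCC 3 against 9.28 CPM in PKO young 3.

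Cdk1 is the kinase that drives mitosis, and Ccnb1 encodes cyclin B1, its partner. In young epidermis Cdk1 stood at 2.18, 7.69 and 5.87 CPM in WT, 5.79, 6.5 and 4.495 in WKO, 5.97, 4.54 and 7.27 in PKO and 2.12, 3.05 and 4.37 in DKO. It was 3.53 and 2.96 CPM in old WT, 51.9, 12.7 and 30.1 in PKO cSCC and 23.5, 30.1 and 11.2 in DKO cSCC. Cdk1 separated the tumours fully from epidermis. Ccnb1 measured 3.602, 13.2 and 9.59 CPM in WT, 5.31, 6.98 and 4.21 in WKO, 16.1, 5.297 and 13.6 in PKO and 2.58, 4.07 and 7.84 in DKO young epidermis. Old WT had 5.67 and 1.9 CPM, PKO cSCC 52.4, 15.03 and 35.9 and DKO cSCC 15.1, 26.1 and 14.6. Ccnb1 did not, since PKO young 1 stood above PKO cSCC 2, DKO cSCC 1 and the library labelled DKO cSCC 3.

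Cdc20 activates the anaphase-promoting complex, and Ube2c is the ubiquitin-conjugating enzyme of that complex. The Cdc20 level was 3.17, 8.24 and 9.31 CPM in WT, 7.56, 8.76 and 4.71 in WKO, 7.13, 7.23 and 8.75 in PKO and 4.57, 3.48 and 6.35 in DKO young epidermis. PKO cSCC stood at 53.9, 19.9 and 41.1 CPM, DKO cSCC at 22.8, 39.6 and 17.8 and old WT at 4.11 and 2.36. The lowest tumour value of Cdc20 was 17.8 CPM and the highest epidermis value 9.31 CPM. WT young epidermis had 1.09, 4.49 and 4.51 CPM of Ube2c, WKO 5.11, 5.61 and 4.42, PKO 2.58, 3.53 and 6.697 and DKO 2.12, 2.47 and 2.98. The old WT values were 1.56 and 1.29 CPM, those of PKO cSCC 43.2, 12.9 and 31.4 and those of DKO cSCC 15.7, 19.6 and 12.8. Ube2c likewise had no overlap, with 12.8 CPM in the library labelled DKO cSCC 3 the lowest tumour value and 6.70 CPM the highest in epidermis.

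Plk1 is a kinase of mitotic entry and spindle assembly. In young epidermis Plk1 stood at 1.201, 3.68 and 3.61 CPM in WT, 4.08, 3.83 and 3.42 in WKO, 3.199, 3.03 and 4.93 in PKO and 0.8601, 0.798 and 2.38 in DKO. It was 2.13 and 0.912 CPM in old WT, 33.6, 5.74 and 14.99 in PKO cSCC and 12, 18.2 and 10.3 in DKO cSCC. Plk1 was under 1 CPM in DKO young 1, DKO young 2 and old WT 2, and its lowest tumour, PKO cSCC 2, was close to the highest epidermis library. Aurkb, the kinase of the chromosomal passenger complex, and Birc5 (survivin), a subunit of it, correct chromosome attachment. Aurkb measured 1.25, 3.75 and 5.36 CPM in WT, 5.31, 3.9 and 2.497 in WKO, 5.78, 1.597 and 5.31 in PKO and 1.12, 1.597 and 1.89 in DKO young epidermis. Old WT had 1.81 and 2.36 CPM, PKO cSCC 26.2, 6.79 and 16.1 and DKO cSCC 15.8, 14.9 and 10.2. The lowest tumour value of Aurkb, in PKO cSCC 2, was above PKO young 1, the highest epidermis library. The Birc5 level was 2.89, 6.06 and 7.22 CPM in WT, 4.63, 4.17 and 3.71 in WKO, 4.92, 5.13 and 7.797 in PKO and 2.12, 3.92 and 4.37 in DKO young epidermis. PKO cSCC stood at 38.7, 13.1 and 36.1 CPM, DKO cSCC at 22.4, 31.9 and 9.82 and old WT at 1.64 and 1.9. Birc5 also had all 6 tumours above all epidermis libraries.

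Bub1 is a kinase of the spindle checkpoint. WT young epidermis had 1.97, 5.99 and 6.997 CPM of Bub1, WKO 3.95, 3.35 and 2.43, PKO 1.84, 1.18 and 5.02 and DKO 2.32, 2.69 and 1.39. The old WT values were 1.31 and 1.44 CPM, those of PKO cSCC 20.3, 7.78 and 17.6 and those of DKO cSCC 13.8, 15.2 and 4.64. In 5 of 6 tumours Bub1 was above all epidermis, and the library labelled DKO cSCC 3 lay below WT young 2, WT young 3 and PKO young 3. Top2a, the topoisomerase that untangles sister chromatids, and Mki67, which coats mitotic chromosomes and is the usual histological marker of cycling cells, complete the group. In young epidermis Top2a stood at 19.1, 57.7 and 52.5 CPM in WT, 47.2, 65 and 45.9 in WKO, 58.7, 34.5 and 66.2 in PKO and 32.4, 39.9 and 32.3 in DKO. It was 33.01 and 19.99 CPM in old WT, 332, 109.7 and 177 in PKO cSCC and 137, 185 and 125 in DKO cSCC. The tumours were all above epidermis for Top2a. Mki67 measured 71.9, 174 and 179 CPM in WT, 106, 120.1 and 94.1 in WKO, 136, 88.6 and 158 in PKO and 45.98, 81.95 and 70.8 in DKO young epidermis. Old WT had 101 and 60.2 CPM, PKO cSCC 466, 98.05 and 247 and DKO cSCC 268, 434 and 292. Mki67 was above all epidermis in 5 of the 6 tumours. In PKO cSCC 2 it was below 6 young epidermis libraries and old WT 1. Of the mitotic genes not listed by library, Ccna2, Aurka, Tpx2, Nusap1 and Cdca8 also had no overlap, while Cenpf, a kinetochore protein, had 3 tumours above all epidermis, as few as Ccnb1.

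The balance between the sets differed by tissue. The ratio of the mitotic to the S-phase sum was 0.794 to 1.24 in the 14 epidermis libraries and 1.38 to 2.68 in the 6 tumours, with no overlap. It was 1.99, 1.38 and 2.68 in PKO cSCC and 1.97, 1.71 and 2.57 in DKO cSCC. The ratio was lowest among tumours in PKO cSCC 2 and highest in PKO cSCC 3. Within the mitotic sum Mki67 took 25.0%, 18.0% and 20.9% in PKO cSCC and 30.7%, 33.2% and 33.8% in DKO cSCC. Epidermis libraries gave 27.5% to 37.6%, so the PKO tumours lay below, and the DKO tumours within, the epidermis range. These ratios were picked after their values were seen, and no test was made on them.

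**Figure D3:**
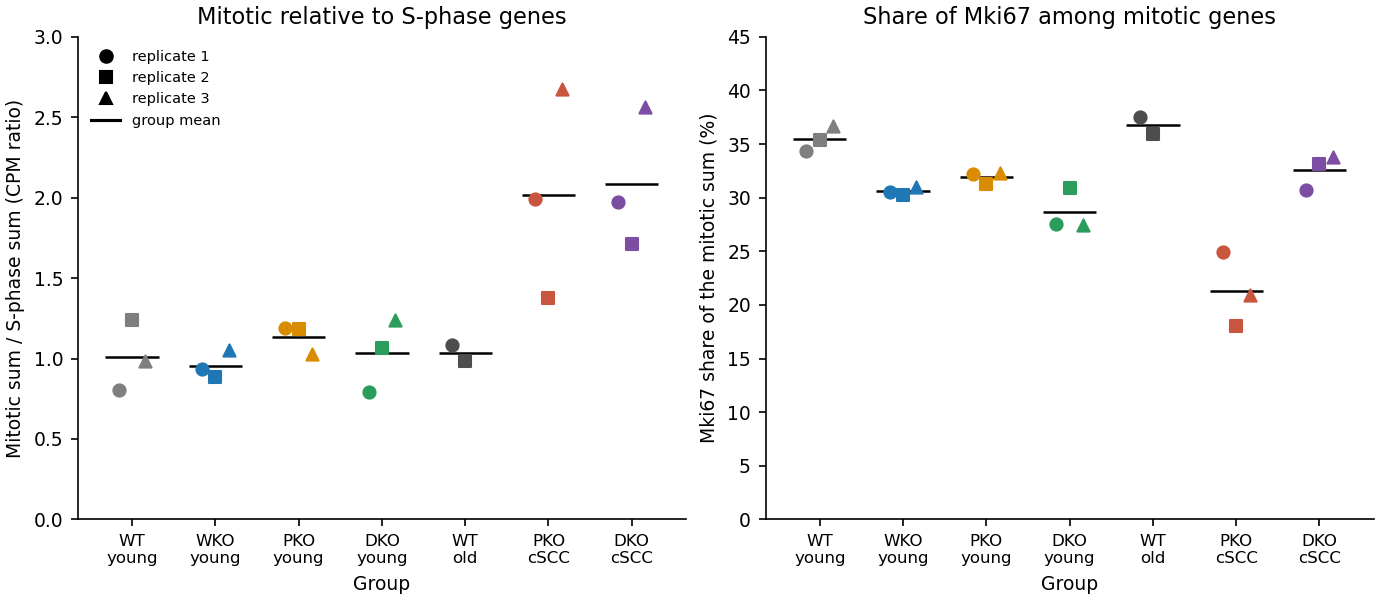
Ratio of the summed mitotic to the summed S-phase level (left) and percent of the mitotic sum contributed by Mki67 (right) in each library, with group means as bars. Tumour ratios of 1.38 to 2.68 lie above epidermis ratios of at most 1.24, and the 3 PKO cSCC have the lowest Mki67 shares (18.0% to 25.0%).

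Promoter sequence was available from RefSeq (GRCm38.p6) for 33 of the 40 genes, among them 20 mitotic and 12 S-phase genes. The 250 bases before the start site were searched on both strands for the CHR element (TTTGAA or TTCGAA), the CCAAT box (CCAAT) and E2F sites (TTTCCCGC, TTTGGCGC, TTTCGCGC or TTTGCCGC). A CHR element was present in 8 of 20 mitotic genes (40%) and 2 of 12 S-phase genes (16.7%), and in 17.4% of 27025 genes. CCAAT was found in 18 of the 20 mitotic genes (90%), in 7 of the 12 S-phase genes (58.3%) and in 34.5% of all genes. Sites of the E2F forms were in 1 of 20 mitotic genes (5%), 4 of 12 S-phase genes (33.3%) and 1.91% of all genes. Matches of these forms can share bases, as in the first E2F stretch of Mcm6 below, where TTTGGCGC meets GCGCGAAA (TTTCGCGC on the other strand). A match is a description of the letters in this window. The 6 promoters below, chosen after the levels were seen, show the 4 mitotic genes with a CHR element among those with full separation of tumours and epidermis, and 2 helicase genes with E2F sites, Mcm5 and the deviating Mcm6. Plk1, Aurka, Birc5, Nusap1 and Cdca8 had full separation but no CHR element. Mki67, Ccnb2, Bub1b and Kif11 had a CHR element without full separation. Each line gives the 150 bases before the start site, 5′ to 3′ on the strand of the gene, with the motifs in capitals. ATTGG is CCAAT on the other strand, TTCAAA is TTTGAA on the other strand, and GCGCCAAA is TTTGGCGC on the other strand.
Cdk1, chr10:69352913-69353062, minus strand: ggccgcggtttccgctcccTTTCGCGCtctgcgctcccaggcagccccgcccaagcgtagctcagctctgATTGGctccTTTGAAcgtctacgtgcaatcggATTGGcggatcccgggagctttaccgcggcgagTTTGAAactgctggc
Top2a, chr11:99024190-99024339, minus strand: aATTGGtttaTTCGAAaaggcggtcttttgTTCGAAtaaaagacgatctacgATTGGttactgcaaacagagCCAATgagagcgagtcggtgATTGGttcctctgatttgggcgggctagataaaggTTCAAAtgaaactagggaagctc
Cdc20, chr4:118437344-118437493, minus strand: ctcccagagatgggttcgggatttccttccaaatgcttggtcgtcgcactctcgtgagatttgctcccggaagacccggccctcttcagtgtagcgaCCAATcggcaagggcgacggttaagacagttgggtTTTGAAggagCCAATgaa
Ube2c, chr2:164769779-164769928, plus strand: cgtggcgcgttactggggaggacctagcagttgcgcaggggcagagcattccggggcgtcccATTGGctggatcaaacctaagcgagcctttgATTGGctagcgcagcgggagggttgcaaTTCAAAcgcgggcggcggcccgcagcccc
Mcm5, chr8:75109359-75109508, plus strand: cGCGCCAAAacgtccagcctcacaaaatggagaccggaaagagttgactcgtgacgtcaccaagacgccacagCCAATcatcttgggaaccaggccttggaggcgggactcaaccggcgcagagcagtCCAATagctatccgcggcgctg
Mcm6, chr1:128359706-128359855, minus strand: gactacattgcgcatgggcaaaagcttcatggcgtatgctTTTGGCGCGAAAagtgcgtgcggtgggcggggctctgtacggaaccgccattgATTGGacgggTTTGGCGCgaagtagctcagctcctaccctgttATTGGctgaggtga

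In young epidermis the first question was what deletion of Wwox or p53 does to these genes. Genes are called here at an adjusted p under 0.05 in the quasi-likelihood test of edgeR, with Benjamini-Hochberg adjustment over all genes tested. In WKO against WT young epidermis 1 of the 40 genes rose, Gins2, and none fell, beside 13.1% of all genes called higher and 8.34% called lower. Gins2 stood at 4.26, 5.04 and 7.96 CPM in WT young and at 9.39, 10.9 and 9.85 CPM in WKO young, and rose by 0.80 on the log2 scale (SE 0.24, adjusted p = 0.0419, edgeR). The 3 WKO values did not overlap the WT values. With RLE scaling in place of TMM, or with no low-count filter, 0 of the 40 were called, beside 21% and 9.46% of all genes. Leaving out any of the 6 libraries except WT young 3 also ended the call of Gins2, as did a block for replicate number (adjusted p = 0.0594), with which Prc1 passed instead (adjusted p = 0.0355). The median log2 fold change was -0.10 over the S-phase genes and 0.01 over the mitotic genes, against -0.03 over all genes. Prc1, a microtubule bundling protein of the central spindle (log2 fold change 0.81, SE 0.27, adjusted p = 0.0561 in edgeR), and Nusap1, a spindle protein (0.98, SE 0.40, adjusted p = 0.0972), had the highest mitotic values. Racgap1, a cytokinesis regulator (-0.75, SE 0.30, adjusted p = 0.0956), and Ccne1 (-1.09, SE 0.53, adjusted p = 0.153) were among the lowest. All 8 T cell markers were lower and all 7 basal keratinocyte markers higher in every WKO than in every WT young library. None was at 0. Of 8 hair follicle markers 4 were lower and 1 higher in every WKO library, with sums of 161.8 to 648.4 against 456.2 to 1588 CPM. The part of these 3 lists was not tested.

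In PKO against WT young epidermis 0 of 40 were called in edgeR, beside 0.00601% of all genes. At an unadjusted p under 0.05 the count was also 0, beside 15.4% of all genes higher and 9.74% lower, and it was 0 with DESeq2, which called 14% of all genes. Without PKO young 3 the count was 0 beside 17.4% of all genes called, and without both PKO young 2 and PKO young 3 it was 0 beside 7.15%. Medians were -0.11 for the S-phase and 0.11 for the mitotic genes. The ends of the range were Nusap1 (0.84, SE 0.40, adjusted p = 0.218) and Bub1 (-0.88, SE 0.59, adjusted p = 0.370). PKO young 3, whose T cell marker sum was the highest of all libraries, had the highest sums of these genes in its group, 473 CPM for the S-phase and 488 CPM for the mitotic genes. The corresponding sums were 356 and 423 CPM in PKO young 1 and 239 and 283 CPM in PKO young 2, whose T cell marker sums were 614 and 236 CPM. The part of these markers in the result was not tested.

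DKO young epidermis had lower levels than WT young for 38 of the 40 genes, with 7 called lower and 0 higher in edgeR. The 7 of 40 stand beside 12.1% of all genes called lower, a share near the background. The median log2 fold change was -0.86 for the S-phase genes and -0.87 for the mitotic genes, against -0.04 for all genes, of which 48.1% were higher in DKO. Of the helicase subunits Mcm3 fell by 1.42 on the log2 scale (SE 0.36, adjusted p = 0.0170), Mcm5 by 1.26 (SE 0.42, adjusted p = 0.0485), Mcm2 by 1.05 (SE 0.35, adjusted p = 0.0480) and Mcm7 by 0.96 (SE 0.29, adjusted p = 0.0345). Mcm3 stood at 30.5, 52.8 and 60.7 CPM in WT young and at 15.9, 19.2 and 18.8 CPM in DKO young, with no overlap. Mitotic genes that fell were Ccnb2, which encodes cyclin B2 (-1.34, SE 0.43, adjusted p = 0.0416), Racgap1 (-1.10, SE 0.31, adjusted p = 0.0251) and Mki67 (-1.10, SE 0.35, adjusted p = 0.0401). Ccnb2 was 3.38, 10.01 and 10.8 CPM in WT young and 2.05, 3.702 and 3.87 CPM in DKO young, where WT young 1 overlapped the DKO values. Only Prc1 (0.22) and Nusap1 (0.14) had positive log2 fold changes, neither called. Counting non-overlap, 5 of the 15 S-phase genes had all DKO below all WT libraries, and 1 of the 23 mitotic genes, beside 24.7% of all genes.

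These calls depended on the libraries in the fit. Of the 40, 12 were called without WT young 1, 0 without WT young 2, WT young 3 or DKO young 1, 2 without DKO young 2, and 2 without the library labelled DKO young 3, while the medians without that last library were -0.85 (S-phase) and -0.98 (mitotic). The shares of all genes called lower in these 6 fits were 5.29%, 5.87%, 7.5%, 2.04%, 5.28% and 10%, in that order. The mitotic median was -0.52 without WT young 2. Fitting all 20 libraries together gave 2 calls, beside 6.79% of all genes called lower. All 8 T cell markers were lower, and all 7 basal keratinocyte markers higher, in every DKO young than in every WT young library, with T cell sums of 87.6 to 272 against 1597 to 2238 CPM and basal sums of 10760 to 12640 against 1568 to 2775 CPM. No marker of either list was at 0 in these libraries. Differentiated keratinocyte sums were 9600 to 14000 against 436.6 to 985.6 CPM, with 8 of 9 markers higher in every DKO library. Erythrocyte sums were 2.61 to 12.5 against 829 to 3496 CPM, with Hbb-bt at 0 in 1 DKO library. Of 7 myeloid markers 6 were lower in every DKO library. Of 8 hair follicle markers 4 were lower and 1 higher in every DKO library, with sums of 263.7 to 747.3 against 456.2 to 1588 CPM. The part of these lists in the lower levels was not tested.

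**Figure D4:**
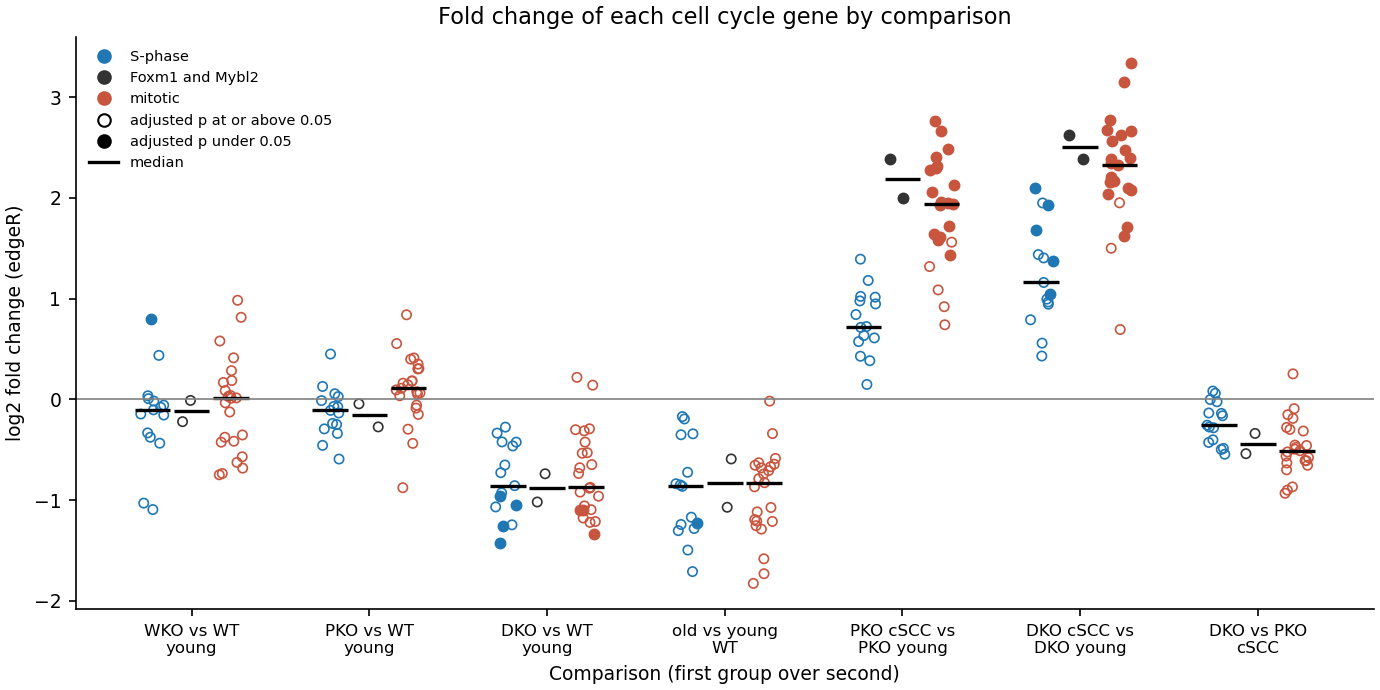
Log2 fold change (edgeR) of each of the 40 genes in 7 comparisons, with S-phase genes in blue, mitotic genes in red and Foxm1 and Mybl2 in black. Filled symbols passed the threshold of 0.05 on the adjusted p, and bars are medians, which run from -0.87 (mitotic, DKO against WT young) to 2.32 (mitotic, DKO cSCC against DKO young) for the S-phase and mitotic sets.

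Old WT against young WT epidermis asks about age with no deletion. All 40 log2 fold changes were negative, with medians of -0.86 (S-phase) and -0.83 (mitotic) against 0.01 for all genes, and 1 gene, Pcna, was called lower, beside 0.261% of all genes. The mitotic median was -1.34 without old WT 1 and -0.61 without old WT 2. Pcna averaged 16.7 CPM in old and 39.3 CPM in young WT, and fell by 1.22 on the log2 scale (SE 0.26, adjusted p = 0.0435, edgeR), with no overlap. With each of the 5 libraries left out in turn 0 of the 40 genes were called. Of all genes, 0% were called lower without any of the WT young libraries. Without old WT 1 that share was 0.174%, and without old WT 2 it was 0.0106%. DESeq2 called 7 of the 40 lower, beside 4.37% of all genes called lower. Next by p were Kif23, a motor of cytokinesis (-1.29, SE 0.34, adjusted p = 0.0634), Birc5 (-1.58, SE 0.45, adjusted p = 0.0799) and Racgap1 (-1.25, SE 0.37, adjusted p = 0.0846). Bub1 had the lowest value (-1.83, SE 0.68, adjusted p = 0.147) and Prc1 the highest (-0.02, SE 0.35). Both old libraries were below all 3 young WT libraries for 8 of the 15 S-phase and 5 of the 23 mitotic genes, 13 of 40 with the factors counted, beside 21.2% of all genes. All 8 T cell markers were also lower in both old libraries (129.7 and 343 CPM summed) than in the 3 young WT libraries, none of them at 0. Erythrocyte sums were 16.5 and 63.8 CPM in old against 829 to 3496 CPM in young WT. Differentiated keratinocyte sums were 2818 and 7743 against 436.6 to 985.6 CPM in the old and young groups, with 4 of 9 markers higher. Basal keratinocyte sums were 3108 and 10050 CPM in old against 1568 to 2775 CPM in young WT, with 4 of 7 markers higher and 0 lower. Hair follicle sums were 213.3 and 537.5 CPM in old against 456.2 to 1588 CPM in young WT, with 4 of 8 markers lower and 1 higher. The part of these lists was not tested.

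PKO cSCC against PKO young epidermis compares tumour with tumour-free skin labelled with the same genotype, although Trp53 was 21.8 and 19.2 CPM in PKO young 2 and 3 and 0.865 to 4.38 CPM in the tumours. Of the 40 genes 20 rose and 0 fell, beside 5.33% of all genes called higher. They were 18 of the 23 mitotic genes, Foxm1 and Mybl2, and 0 of the 15 S-phase genes. The medians were 1.94 for the mitotic and 0.72 for the S-phase genes, and the S-phase median was 0.34 without PKO cSCC 1. Ube2c stood at 2.58, 3.53 and 6.697 CPM in PKO young and at 43.2, 12.9 and 31.4 CPM in PKO cSCC, and rose by 2.76 on the log2 scale (SE 0.51, adjusted p = 0.00596, edgeR). Foxm1 rose by 1.998 on the log2 scale (SE 0.37, adjusted p = 0.00601), Cdc20 by 2.31 (SE 0.46, adjusted p = 0.00754) and Tpx2, a spindle assembly factor, by 2.06 (SE 0.42, adjusted p = 0.00863). For Tpx2 the levels were 15.7, 12.2 and 23.4 CPM in PKO young and 101, 32.8 and 80.5 CPM in PKO cSCC. The mitotic genes that did not pass were Ccnb2, Ccnb1, Kif23, Mki67 (1.09, SE 0.46, adjusted p = 0.134) and Cenpf. Among S-phase genes Cdt1 came nearest (1.18, SE 0.38, adjusted p = 0.0550), and Pcna was lowest (0.15, SE 0.32, adjusted p = 0.808). Groups did not overlap for 17 mitotic and 2 S-phase genes, 21 of 40 with the factors, beside 12.9% of all genes.

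The count of 20 fell to 0 when the fit held the 6 compared libraries alone, where Ube2c had 2.69 with adjusted p = 0.0950. That fit called only 0.027% of all genes higher. The count was 8 without PKO cSCC 1, 10 without PKO young 1 and 10 without PKO young 2, beside 3.21%, 2.78% and 2.14% of all genes called higher. Without both PKO young 2 and PKO young 3 it was 1 (Aurka, called higher), beside 0.235% of all genes called higher, with medians of 1.82 (mitotic) and 0.84 (S-phase). In that fit Ube2c had 3.50 (SE 0.83, adjusted p = 0.0595), and the lone PKO young library is assumed to vary like those of the other groups. Differentiated keratinocyte markers summed to 172 to 1857 CPM in these tumours and 987 to 10810 CPM in PKO young, with 3 of 9 markers lower in every tumour library and Lor, which encodes loricrin, at 0 in 1 tumour. The 8 T cell markers reached 9.11 to 45.2 CPM in sum in the tumours against 236 to 3003 CPM for PKO young, with 7 of 8 lower in every tumour and Cd2 at 0 in 1. Neither was tested against the result, and sex and tissue cannot be told apart here.

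DKO cSCC against DKO young epidermis gave 27 genes that rose and 0 that fell, beside 3.27% of all genes called higher. They were 20 of the 23 mitotic genes, both factors, and the S-phase genes Mcm5, Rrm2, Mcm3, Mcm7 and E2f1. Medians were 2.32 (mitotic) and 1.16 (S-phase). Foxm1 stood at 5.03, 5.52 and 7.34 CPM in DKO young and at 33.7, 40.2 and 19.7 CPM in DKO cSCC, and rose by 2.39 on the log2 scale (SE 0.38, adjusted p = 0.00419, edgeR). Tpx2 rose by 2.39 (SE 0.42, adjusted p = 0.00631), Cdc20 by 2.48 (SE 0.46, adjusted p = 0.00779) and Birc5 by 2.63 (SE 0.49, adjusted p = 0.00782), all on the log2 scale. Plk1 had the largest value, 3.34 (SE 0.64, adjusted p = 0.00830). Mcm5 stood at 11.8, 18.3 and 13.8 CPM in DKO young and at 52.7, 95.1 and 40.6 CPM in DKO cSCC, and rose by 2.10 on the log2 scale (SE 0.50, adjusted p = 0.0206, edgeR). Rrm2 rose by 1.93 (SE 0.49, adjusted p = 0.0284). Tyms had the lowest value (0.43, SE 0.32, adjusted p = 0.441). No library of the groups overlapped for 23 of the 23 mitotic genes, 11 of the 15 S-phase genes and both factors, beside 14.2% of all genes.

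Without the libraries labelled DKO young 3 and DKO cSCC 3 the count was again 27, with medians of 2.67 (mitotic) and 1.61 (S-phase). That fit called 4.46% of all genes higher. The count was 4 without DKO young 1 and 16 without DKO cSCC 2, beside 0.453% and 1.16% of all genes called higher. The S-phase calls were 0 without DKO young 1, 0 without the library labelled DKO young 3, 0 without DKO cSCC 2, 1 without DKO young 2, 1 without DKO cSCC 1 and 1 with a block for replicate number. The mitotic calls in the same settings were 3, 17, 15, 16, 17 and 18. The shares of all genes called higher there were 0.453%, 1.81%, 1.16%, 1.01%, 1.54% and 2.01%, in that order. Differentiated keratinocyte markers summed to 451 and 2598 CPM in DKO cSCC 1 and 2 but 14140 CPM in the library labelled DKO cSCC 3, against 9600 to 14000 CPM in DKO young. The 8 T cell markers reached 17.6 to 98.6 CPM in sum in the tumours against 87.6 to 272 CPM for DKO young, with 6 of 8 lower in every tumour and Nkg7 at 0 in 1. Basal keratinocyte sums were 14630 to 26570 CPM in the tumours against 10760 to 12640 CPM in DKO young, with 3 of 7 markers higher and 1 lower in every tumour. Of 6 endothelial and mural cell markers 4 were higher in every tumour and 0 lower, with Kdr, Emcn and Pdgfrb at 0 within DKO young. Eif2s3y was 26.8 and 23.8 CPM in the libraries labelled DKO cSCC 2 and 3, and 0 CPM in DKO cSCC 1 and all DKO young libraries. The part of these lists and of sex was not tested.

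The change from young epidermis to tumour was also compared between the DKO and PKO genotypes, as the difference of the changes. In that test 0 of the 40 genes were called and 0 of all genes (0%), with the smallest adjusted p of the 40 at 0.448 and 0 at an unadjusted p under 0.05, beside 7.71% of all genes positive and 4.93% negative. DESeq2 also called 0 of the 40. The medians of the difference were 0.41 for the S-phase and 0.33 for the mitotic genes, and 35 of the 40 were positive. With single libraries left out these medians ran from 0.11 to 0.84 and from -0.01 to 0.66. Passing in the DKO and not in the PKO comparison therefore does not show a difference for Mcm5, Rrm2, Mcm3, Mcm7, E2f1, Ccnb2 or Mki67.

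Set against old WT epidermis, the tumour-free group of greatest age, PKO cSCC had 0 of 40 genes called in edgeR, beside 0.00605% of all genes called higher. All 40 log2 fold changes were positive, with medians of 3.12 (mitotic) and 1.73 (S-phase) against 0.06 for all genes, and 37 had an unadjusted p under 0.05, beside 14.6% of all genes. The smallest adjusted p was that of Ube2c, 0.05004, just above the threshold, with a log2 fold change of 4.41 (SE 0.59) from 1.56 and 1.29 CPM in old WT to 43.2, 12.9 and 31.4 CPM in PKO cSCC. Ccna2, which encodes cyclin A2 (3.12, SE 0.46), Ccnb2 (3.21, SE 0.51) and Cdc20 (3.63, SE 0.60) had adjusted p of 0.0523, 0.0526 and 0.0526. Tyms was lowest at 0.39 (SE 0.46, adjusted p = 0.600). Non-overlap was found for 36 of 40, beside 22.3% of all genes. The count was 34 with no low-count filter, beside 2.95% of all genes called higher, and 32 with DESeq2, beside 8.96%. It was 34 with all 20 libraries in the fit, beside 10.5%, and 11 without PKO cSCC 2, beside 0.35%. The S-phase median was 1.13 without PKO cSCC 1. Eif2s3y was 0 CPM in both old WT libraries and at least 20 CPM in every PKO tumour, so sex and tissue cannot be told apart here either.

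DKO cSCC against old WT also gave 0 of 40 in edgeR, and 0% of all genes were called higher. The 40 values were all positive, with medians of 2.51 (mitotic) and 1.30 (S-phase), and 33 had an unadjusted p under 0.05, beside 8.28% of all genes. Birc5 had the highest value, 3.62 (SE 0.70, adjusted p = 0.165), from 1.64 and 1.9 CPM in old WT to 22.4, 31.9 and 9.82 CPM in DKO cSCC. Ube2c had the smallest adjusted p, 0.164 (3.51, SE 0.57). For 37 of 40 genes the groups did not overlap, beside 17.9% of all genes. The count was 26 with no low-count filter, beside 1.4% of all genes called higher, 26 with DESeq2, beside 3.06%, and 23 with all 20 libraries in the fit, beside 2.48%. Without the library labelled DKO cSCC 3 it stayed at 0, with medians of 2.51 (mitotic) and 1.49 (S-phase). The 2 old WT libraries served as reference for both tumour groups. Of the 8 T cell markers 7 were lower in every PKO tumour and 6 in every DKO tumour than in both old WT libraries. Differentiated keratinocyte sums were 171.7 to 1857 CPM in PKO cSCC and 451.4 to 14140 CPM in DKO cSCC, against 2818 and 7743 CPM. Of these 9 markers 4 were lower and 1 higher in every PKO tumour, and 0 and 1 in every DKO tumour. Basal keratinocyte sums were 9096 to 29140 CPM in PKO cSCC and 14630 to 26570 CPM in DKO cSCC, against 3108 and 10050 CPM. Of 7 basal markers 4 were higher in every PKO tumour and 3 in every DKO tumour, and 0 were lower. The part of these lists was not tested.

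DKO against PKO cSCC is the comparison of Wwox deletion within p53-deleted tumours, and 0 of 40 were called, beside 0.00605% of all genes. The medians were -0.26 (S-phase) and -0.51 (mitotic), and 37 of the 40 values were negative. The lowest was Ccnb1 (-0.93, SE 0.55, adjusted p = 0.670, edgeR), and the smallest p was that of Ccna2 (-0.87, SE 0.36, adjusted p = 0.615), the only one of the 40 under 0.05 unadjusted, beside 3.22% of all genes. Ccna2 stood at 56.5, 20.4 and 35.3 CPM in PKO cSCC and 21.4, 21.8 and 20 CPM in DKO cSCC, with PKO cSCC 2 inside the DKO range. Mki67 had the highest value, 0.25 (SE 0.52, adjusted p = 0.913), and turned to -0.14 without PKO cSCC 2. The S-phase median turned to 0.31 without PKO cSCC 1 and to 0.07 without the library labelled DKO cSCC 3, and the mitotic median was -0.15 and -0.33 in those settings. Leaving out DKO cSCC 2 gave an S-phase median of -0.62, and leaving out PKO cSCC 2 a mitotic median of -0.85. Mitotic sums were 1868, 545 and 1184 CPM in PKO cSCC and 873, 1308 and 863 CPM in DKO cSCC, so the DKO tumours lay inside the PKO range. All 6 endothelial and mural cell markers were higher in every DKO than in every PKO tumour, with sums of 53.3 to 343 against 12.5 to 23.5 CPM, none at 0, and were not tested against these values. Eif2s3y was 0 CPM in DKO cSCC 1 and at least 20 CPM in every other tumour, and the part of sex was not tested.

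Among further genes of the 2 sets, from lists written with earlier results of these data known, 52 mitotic and 43 S-phase genes were tested. In PKO cSCC against PKO young 32 of the 52 mitotic and 5 of the 43 S-phase genes rose, and none fell, beside the same 5.33% of all genes. In DKO cSCC against DKO young 38 of 52 and 18 of 43 rose and none fell, beside 3.27%. Kif2c, a kinesin that depolymerises microtubules, rose by 3.11 on the log2 scale in the DKO comparison (SE 0.49, adjusted p = 0.00419), and Kif22, a chromosome motor, by 3.62 (SE 0.58, adjusted p = 0.00424). Mcm10, which helps start the helicase, rose by 3.37 (SE 0.56, adjusted p = 0.00439), from 2.10 CPM in DKO young to 21.9 CPM in DKO cSCC. Mcm10 also rose in PKO cSCC (1.86, SE 0.52, adjusted p = 0.0320). In DKO against WT young 9 of the 43 S-phase genes and 7 of the 52 mitotic genes fell and 3 mitotic genes rose, beside 12.1% of all genes lower and 15.8% higher. Fbxo5, an inhibitor of the anaphase-promoting complex, fell by 1.81 (SE 0.38, adjusted p = 0.0100), and Ckap2l, a spindle protein, rose by 1.33 (SE 0.31, adjusted p = 0.0140).

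Genes that act upstream, in G1, were described from lists of the same kind. Cdkn1a, which encodes p21 and is a classical p53 target, stood at 52.8, 47.05 and 38.7 CPM in WT young, 135, 86.9 and 118 CPM in WKO, 73.1, 242 and 52.5 CPM in PKO and 238, 193 and 265 CPM in DKO young epidermis. It was 87.1 and 29.3 CPM in old WT, 25.9, 39.6 and 36.1 CPM in PKO cSCC and 36.9, 45.4 and 82.6 CPM in DKO cSCC. All DKO young libraries were above all WT young libraries, PKO young 2 lay in the DKO range, and Cdkn1a rose by 2.32 on the log2 scale (SE 0.49, adjusted p = 0.0100, edgeR). From young epidermis to tumour it fell by 1.85 in PKO (SE 0.50, adjusted p = 0.0282) and by 2.08 in DKO (SE 0.51, adjusted p = 0.0230). Of the 6 CDK inhibitor genes tested in young epidermis, Cdkn2b (2.26, SE 0.46, adjusted p = 0.00916) and Cdkn2d (1.18, SE 0.27, adjusted p = 0.0134) rose with Cdkn1a in DKO and Cdkn1b, which encodes p27, fell by 0.62 (SE 0.17, adjusted p = 0.0247). In WKO, Cdkn2b alone of the 6 was called (1.62, SE 0.45, adjusted p = 0.0324).

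Cdkn2a, which encodes p16 and p19ARF, was at most 2.91 CPM in the 14 epidermis libraries. It was 38.6, 57.1 and 59.2 CPM in PKO cSCC and 134, 55.8 and 0.625 CPM in DKO cSCC. The low value is that of the library labelled DKO cSCC 3, in which Trp53 was 45.5 CPM. Cdkn2a rose by 6.83 in PKO cSCC (SE 1.38, adjusted p = 0.00863) and by 5.07 in DKO cSCC (SE 1.24, adjusted p = 0.0232) against young epidermis of the same genotype on the log2 scale, where the low levels in epidermis make the size uncertain.

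Myc, a growth factor-induced activator of the cycle, was 18.7, 24.9 and 26.7 CPM in WT young, 127, 131 and 139 CPM in WKO, 96.1, 179.8 and 45.5 CPM in PKO and 384, 286 and 208 CPM in DKO young epidermis. All libraries of the 3 deleted groups were above WT young for Myc. It rose by 2.49 in WKO (SE 0.43, adjusted p = 0.0126) and by 3.64 in DKO (SE 0.45, adjusted p = 0.00614), and the PKO value of 2.19 (SE 0.42) had adjusted p = 0.0539. Myc then fell by 2.02 from DKO young epidermis to DKO cSCC (SE 0.46, adjusted p = 0.0165), where it was 67.3, 101 and 48.4 CPM. Ccnd1, which encodes cyclin D1, was 24.9, 41.4 and 31.6 CPM in WT young and 47.9, 81.3 and 56.6 CPM in WKO, and rose there by 0.92 (SE 0.27, adjusted p = 0.0364). In PKO cSCC it was 158, 33.8 and 42.6 CPM, so that PKO cSCC 1, which led in most of the 40 genes, stood apart. E2f2 fell in WKO (-1.39, SE 0.27, adjusted p = 0.0130), in DKO young (-1.22, SE 0.27, adjusted p = 0.0122) and in old WT (-1.66, SE 0.36, adjusted p = 0.0441), each against WT young. Of the 13 G1 genes 2 rose and 3 fell in WKO, beside 13.1% of all genes higher and 8.34% lower, and 1 rose and 4 fell in DKO young, beside 15.8% and 12.1%. In PKO cSCC against PKO young 2 rose, Tfdp1, a partner of E2F proteins (0.90, SE 0.26, adjusted p = 0.0365), and E2f3 (1.24, SE 0.37, adjusted p = 0.0420), and in DKO cSCC against DKO young 1 fell, Myc.

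**Figure D5:**
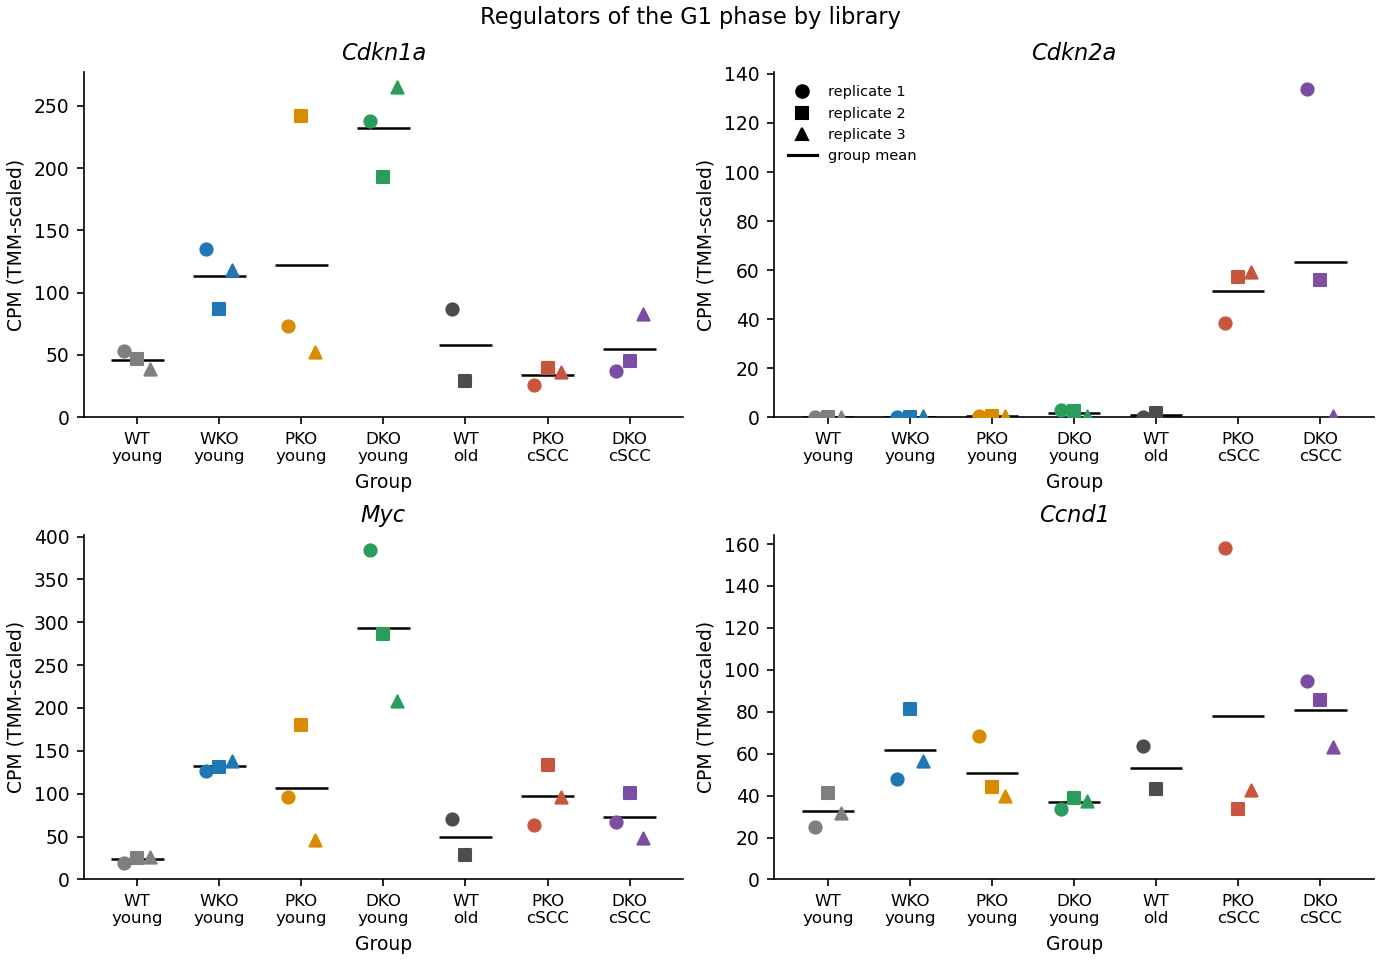
Level in CPM of Cdkn1a, Cdkn2a, Myc and Ccnd1 in each library by group, with the replicate number as symbol and the group mean as bar. Cdkn1a and Myc reach their highest levels in DKO young epidermis (193 to 265 CPM and 208 to 384 CPM), with PKO young 2 inside the DKO range of Cdkn1a, and Cdkn2a is high in 5 of the 6 tumours.

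Of the 8 pocket protein and repressor E2F genes, which restrain E2F targets, Rb1 fell by 0.69 (SE 0.15, adjusted p = 0.0154) and Rbl2, which encodes p130, by 0.94 (SE 0.21, adjusted p = 0.0163) in WKO. In DKO young Rbl2 fell by 0.996 (SE 0.21, adjusted p = 0.0100), Rbl1, which encodes p107, by 0.75 (SE 0.16, adjusted p = 0.0104) and Rb1 by 0.44 (SE 0.15, adjusted p = 0.0478), and E2f5 rose by 0.73 (SE 0.25, adjusted p = 0.0490). Rbl2 fell again in PKO cSCC against PKO young (-0.96, SE 0.20, adjusted p = 0.0101), and E2f8, a repressor that is itself an E2F target, rose in DKO cSCC against DKO young (2.15, SE 0.62, adjusted p = 0.0450). Rb1 was 194 CPM in old WT 2, beside 28.8 CPM in old WT 1 and 18.2 to 52.9 CPM in the other libraries. Of the MuvB core, 4 genes could be matched (Lin9, Lin37, Lin52 and Rbbp4), and 0 of 4 were called in any comparison in edgeR. Rbbp4, a histone-binding subunit, came nearest at a log2 fold change of 1.25 in PKO cSCC against old WT (SE 0.27, adjusted p = 0.0616).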

How the data were processed

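Bulk RNA was sequenced from sorted tdTomato-positive cells with a stranded total RNA kit in 20 libraries of 7 groups. The authors deposited 1 table of estimated counts per gene, from Salmon 0.13.1 on mm39 with reads trimmed by Trim Galore 0.4.1 and checked with FastQC 0.11.5, per the submitters' processing notes, which also name DESeq2 1.28.1. The deposited estimated counts are whole numbers, and all 37 values of 7 or more digits are multiples of 10. Strand and duplicate handling in the counting are not given in the sources used here. Symbols came from the GENCODE names of GRCm38 and were found for 48246 of 51123 gene IDs.

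Genes were filtered with filterByExpr (minimum count 10), scaled by TMM and tested with the quasi-likelihood test of edgeR 4.0.16 (limma 3.58.1, R 4.3.3), with Benjamini-Hochberg adjustment over all genes tested and a threshold of 0.05. The SE of a log2 fold change is its size divided by the square root of the F statistic. Comparisons among the 12 young libraries (16627 genes), among the 8 libraries of tumours and old WT (16526), of old with young WT epidermis (14 libraries, 17622) and of tumours with young epidermis (20 libraries, 18164) were fitted apart. Group levels are CPM computed over all 20 libraries, and the heat map adds 0.5 CPM before the log2. The code was tested on simulated counts. Library totals, 11930153 to 17199262 counts, limit the precision of low genes.

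Members and lists were chosen with earlier results of these data known. Values by library are given for Mki67, Top2a, Ccnb1, Cdk1, Ube2c, Plk1, Aurkb, Birc5, Cdc20, Bub1, Mcm2, Mcm5, Pcna, Cdc6, Cdt1, E2f1, Ccne1, Ccne2, Rrm2, Tyms, Foxm1 and Mybl2. In each comparison up to 4 members of smallest p and those of highest and lowest fold change were named, and up to 4 genes per further list besides Cdkn1a, Cdkn2a, Ccnd1 and Myc. Alternatives were RLE scaling, no low-count filter, DESeq2 1.42.0, a replicate block, another choice of libraries in the fit, and leaving out single libraries or both that go against their labels. A fit without PKO young 2 and 3 was added after the data were seen. Tables used Python 3.11.15 and pandas 2.3.3.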

Additional observations from a re-analysis of the deposited data

How the results depend on the processing

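Under the alternatives 436 values of single genes kept their direction and side of the threshold, 35 newly passed it, 50 no longer passed it and 11 turned sign. Where a fit held only 1 of the 2 libraries that go against their labels, leaving out both equalled leaving out that 1. Such fits are counted under both settings. The mitotic medians moved by less than the spread between libraries in 121 of 121 settings, and the S-phase medians in 119 of 121, the exceptions being 1.13 (PKO cSCC against old WT) and 0.31 (DKO against PKO cSCC), both without PKO cSCC 1. Counts of genes called among the 40 moved more. The share of all genes called moved too. In PKO cSCC against PKO young it went from 11.5% to 0.0472% with only the compared libraries. With single libraries left out it ran from 6.3% to 11.3% there and from 1.46% to 9.93% in DKO cSCC against DKO young. In WKO against WT young it ran from 5.15% to 20.3%, with 31.4% in DESeq2 and 12.1% in the fit of all 20 libraries. In DKO against WT young it ran from 9.31% to 23.4%, with 17.3% in the fit of all 20 libraries. In old against young WT it was 2.98% with no filter, 12.4% with DESeq2 and 0.848% with all 20 libraries. In WKO against WT young epidermis the 1 gene became 0 with RLE scaling, 0 with no low-count filter, 2 with DESeq2, 0 with all 20 libraries in 1 fit, and 0 to 1 with single libraries left out. In DKO against WT young the 7 became 2 with all 20 libraries in 1 fit, 2 without the library labelled DKO young 3, and 0 to 12 with single libraries left out. In old against young WT the 1 became 2 with no filter, 7 with DESeq2, 0 with all 20 libraries and 0 to 0 with single libraries left out. Against old WT the 0 of PKO cSCC became 34 with no filter, 32 with DESeq2, 34 with all 20 libraries and 0 to 11 with single libraries left out, and the 0 of DKO cSCC became 26, 26 and 23 in the same 3 settings. In PKO cSCC against PKO young the 20 became 0 with only the compared libraries, 1 without both PKO young 2 and PKO young 3 (a setting chosen after seeing the data) and 8 to 26 with single libraries left out, and in DKO cSCC against DKO young the 27 became 4 to 30. The cause was not tested.

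Signs turned for Prc1 in DKO against WT young (-0.024 without the library labelled DKO young 3, with -0.024 to 0.45 over single libraries left out), and for Prc1 in old against young WT (0.13 with the block, 0.022 without WT young 2, 0.074 without WT young 3, with -0.57 to 0.37 over single libraries left out). They turned for Tyms against old WT (PKO cSCC -0.060 without old WT 2, with -0.072 to 1.13 over single libraries, and DKO cSCC -0.068 to 1.12). They turned too for Mki67 in DKO against PKO cSCC (-0.14 to 0.88) and for Pcna in PKO cSCC against PKO young (-0.23 without PKO cSCC 1). None of these was called.

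Replicate numbers are shared by the groups, but correlations of same-numbered libraries ran from -0.292 to 0.305, so the numbers were not taken as pairs, and 0 to 3 of 5 or 6 libraries per comparison correlated best with their own number. With the replicate block the counts were 1 (WKO young, where Gins2 was lost and Prc1 gained), 0 (PKO young), 2 (DKO young), 0 (old against young WT), 16 (PKO cSCC against PKO young) and 21 (DKO cSCC against DKO young). They were 0 in the other 4 comparisons. Of all genes, the block fits called 14.2%, 0.00601%, 21.6%, 0%, 7.89% and 4.97% in the order given, and at most 0.0121% in the other 4. With no low-count filter the median over all genes moved from -0.03 to -0.22 in WKO and from -0.04 to -0.21 in DKO young.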
